A study of Mus musculus with 16 samples.

Results

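The GABA-A receptor subunit genes Gabra2, Gabra3, Gabra4, Gabra5, Gabrb1, Gabrb2 and Gabrd were described across cell classes and experimental groups in the prefrontal cortex by RNA-Seq of single nuclei. They were chosen by name and are 7 of the 19999 genes in the table of counts, and all 7 were present. GABA-A receptors are chloride channels that open when GABA binds and that carry most fast inhibition in the cortex. Each receptor combines α, β and further subunits, and the combination sets where the receptor sits and how it responds to GABA, benzodiazepines, neurosteroids and alcohol. Many, but not all, receptors that hold a γ subunit cluster at synapses, whereas those with a δ subunit, and many of those with α5, lie outside the synapse and carry a slow tonic current.

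The study compared 16 male mice of 22 weeks in a design of 2 genotypes and 2 exposures, with 4 mice per group. WT controls and WT alcohol mice were of a B6;129 background, as were the 3xTg-AD mice. 3xTg-AD control and 3xTg-AD alcohol mice carried mutant human APP and tau under the Thy1 promoter, which is active in neurons. The human transgenes were not analysed here. The alcohol groups received ethanol with pyrazole, an inhibitor of alcohol dehydrogenase, and intermittent alcohol vapor, whereas both control groups received pyrazole and stayed in air. Per the study, tissue was taken after a water maze test and more than a week after the last vapor exposure. The comparison asks how a history of repeated alcohol intoxication and the 3xTg-AD genotype, alone and together, change transcription in each type of cortical cell.

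The table held 114512 nuclei and 216742276 unique molecular identifiers (UMIs), with 4955 to 9096 nuclei and 9622031 to 17544364 UMIs per mouse. Nuclei were assigned to classes from marker genes without the use of any GABA-A subunit, and 67799 were named. The classes are called by the type whose markers they carried, such as L6 CT-like for layer 6 corticothalamic neurons, and 17 of them, 11 of neurons, held enough nuclei in every group to be tested. The names were rebuilt here from markers, and a class may hold other nuclei than one of that name in the study, which can make values differ. Unnamed nuclei made up 48.1% ± 2.69 (SD, n = 4) of the nuclei of WT alcohol mice and 35.5% ± 3.19 of those of WT controls. They made up 37.9% ± 9.46 of the nuclei of 3xTg-AD control and 36.9% ± 13.5 of those of 3xTg-AD alcohol mice. The mice shared few barcodes, with 1694 of 112806 barcode sequences seen in more than 1 mouse. WT control mice 26 and 27 and 3xTg-AD control mouse 12 stood apart from the rest. In these 3 mice, the ribosomal RNA-associated transcript Gm42418 took 17914 to 29047 CPM (UMIs per 1000000 UMIs), against 2059 to 4249 in the other 13. All 3 are controls, so the calls of members between groups are given with and without them, whereas the levels by class are over all 16 mice. Without them, mice 28 and 36 are the only WT controls.

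Transcripts of other cell types were counted in the classes. Slc17a7, the vesicular glutamate transporter of excitatory neurons, ranged in mean level from 166 CPM in Pvalb-like to 474 in microglia-PVM-like nuclei over the 11 classes other than glutamatergic neurons. Gad1, which makes GABA in interneurons, ranged from 21.8 CPM in L5 ET-like to 31.2 in L5/6 NP-like nuclei over the 6 glutamatergic classes. The source of these UMIs was not tested. Slc17a7 had a level in microglia-PVM-like nuclei (microglia and perivascular macrophages) that was 66.9% of that in glutamatergic neurons. In GABAergic neurons its level was 38.6% of that in microglia-PVM-like nuclei, and the level of Gad1 in glutamatergic neurons was 28.9% of that in microglia-PVM-like nuclei. The level of a subunit in microglia-PVM-like nuclei, which had a median of 764 UMIs against 2638 in glutamatergic and 1810.0 in GABAergic neurons, was taken as the reference for such UMIs. By Slc17a7 and Gad1, neurons held fewer of them than the reference does, so a level at or below the reference was not read as expression but does not show that a gene is not expressed there. Slc1a3, a glutamate transporter of astrocytes, ranged from 128 to 1717 CPM in the microglia-PVM-like nuclei of the 16 mice, and its part in the reference of single subunits was not tested.

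The 7 genes lie on 5 chromosomes of GRCm38 (mm10). Gabra2 (chr5:70957597-71095849) and Gabra4 (chr5:71569749-71658308) are on the minus strand of chromosome 5, and Gabrb1 (chr5:71658113-72149037) follows Gabra4 on the plus strand. Gabra5 is at chr7:57407672-57510059, Gabrb2 at chr11:42419757-42629028, Gabrd at chr4:155384980-155398112 and Gabra3 at chrX:72432681-72656848. Gabra4 and Gabrb1 overlap at their starts on opposite strands, so that each starts inside the other. Their gene models share 196 bases, and the starts given by RefSeq are 387 bases apart. The windows around both starts (RefSeq, GRCm38.p6, 250 bases before to 50 after the start, 5′ to 3′ on the strand of the gene) are shown because these neighbours were both called with alcohol in the alternative fits described below, with the GC box GGGCGG or its complement CCGCCC in capitals:
Gabra4 (chr5:71658259-71658558, minus strand): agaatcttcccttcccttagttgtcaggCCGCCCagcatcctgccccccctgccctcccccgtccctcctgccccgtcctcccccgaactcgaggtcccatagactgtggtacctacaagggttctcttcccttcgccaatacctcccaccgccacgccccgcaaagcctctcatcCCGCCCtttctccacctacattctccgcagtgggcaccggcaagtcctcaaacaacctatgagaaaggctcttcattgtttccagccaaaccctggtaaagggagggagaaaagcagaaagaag
Gabrb1 (chr5:71657671-71657970, plus strand): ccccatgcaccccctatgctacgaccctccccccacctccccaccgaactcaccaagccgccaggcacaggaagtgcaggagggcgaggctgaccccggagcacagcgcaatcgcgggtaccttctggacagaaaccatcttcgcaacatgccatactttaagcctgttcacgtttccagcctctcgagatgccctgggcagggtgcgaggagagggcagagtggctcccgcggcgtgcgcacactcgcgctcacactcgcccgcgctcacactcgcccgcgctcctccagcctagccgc
RefSeq gives another Gabrb1 start downstream, whose window (chr5:71699682-71699981) is not shown and holds 9 CpG dinucleotides. The Gabra4 window holds 2 GC boxes and 12 CpG dinucleotides, and the Gabrb1 window shown holds 0 GC boxes and 25 CpG dinucleotides, against a median of 7 CpG over all 32851 RefSeq windows. Over these windows, searched on both strands, 35.7% hold the GC box, 13.6% the letters TATAAA and 1.79% the letters TGACGTCA. Neither TATAAA nor TGACGTCA occurs in the Gabra4 or this Gabrb1 window, which says only that these letters are not there. RefSeq windows were matched for 6 of the 7 members.

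Levels are given as CPM, the share of a gene in the UMIs of a class in a mouse, as the mean ± SD over mice. They can be compared between classes but not between genes, whose lengths run from 13133 bases for Gabrd to 490925 for Gabrb1. A class was compared with microglia-PVM-like nuclei, and with its neighbour in the order of levels, by two-sided exact sign-flip permutation tests of the log2(CPM + 1) difference within a mouse (smallest possible p = 3.05e-05 with 16 mice). Each family held 112 comparisons, adjusted by Benjamini-Hochberg. In the comparison with microglia-PVM-like nuclei, 30 class values were higher, 13 were lower, and 69 did not pass. A mouse without a UMI of the gene enters at 0 on the log2 scale. In classes with few UMIs, a lower value can thus not be told apart from low depth. The reference itself held 80 UMIs of Gabra5, 72 of Gabrb2 and 53 of Gabrd in all, and was 0 CPM in the lowest mouse for each. A reference at 0 enlarges the log2 difference of that mouse. Its part in the calls of these genes above the reference was not tested. Of the neighbour pairs, 5 of 112 passed, so for most neighbours in the orders below no difference beyond the spread was shown.

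Gabra2, the α2 subunit found at synapses onto the cell body and axon initial segment of pyramidal neurons, was highest in Sncg-like interneurons and in L2/3 IT-like and L5 ET-like projection neurons. Its level was 236 ± 65.3 in Sncg-like, 207 ± 40.7 in L2/3 IT-like, 174 ± 36.2 in L5 ET-like, 148 ± 23.4 in astrocyte-like, 145 ± 43.3 in Vip-like, 126 ± 21.8 in L5 IT-like, 117 ± 45.7 in microglia-PVM-like and 117 ± 42.6 in OPC-like nuclei (n = 16). Sncg-like, L2/3 IT-like, L5 ET-like and astrocyte-like nuclei were above the reference (15 of 16 mice, adjusted p = 0.000621 for Sncg-like, 16 of 16 mice, adjusted p = 0.000570 for L2/3 IT-like). In the rest of the order, the level was 117 ± 29.7 in Lamp5-like, 116 ± 23.7 in L6 IT-like, 104 ± 42.8 in oligodendrocyte-like, 103 ± 52.8 in endothelial-like, 96.99 ± 21.1 in Sst-like, 91.3 ± 36.2 in VLMC-like, 71.3 ± 22.3 in Pvalb-like, 67.1 ± 16.95 in L5/6 NP-like and 66.6 ± 19.2 in L6 CT-like nuclei (n = 15 for VLMC-like, here and below). Pvalb-like, L5/6 NP-like and L6 CT-like neurons, at the end of the order, were below the reference in 15 of 16 mice each (adjusted p = 0.00126, 0.00573 and 0.00299). L2/3 IT-like neurons were higher than L5 ET-like neurons (0.25 on the log2 scale, higher in 15 of 16 mice, adjusted p = 0.00513), and no other neighbours of Gabra2 passed.

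Gabra3, the α3 subunit, which is expressed early in development and by subsets of adult neurons, was not called above the reference in any class. Its level was 68.98 ± 20.2 in Sst-like, 58.6 ± 21.4 in L5/6 NP-like, 53.3 ± 14.2 in OPC-like, 52.8 ± 22.99 in oligodendrocyte-like, 51.8 ± 30.3 in endothelial-like, 51.5 ± 14.03 in microglia-PVM-like, 48.4 ± 10.5 in Pvalb-like and 45.4 ± 13.7 in Vip-like nuclei. The Sst-like neurons led the order, but 12 of 16 mice were above the reference of the same mouse (adjusted p = 0.0695). The remaining levels were 45.4 ± 12.5 in L6 IT-like, 45.3 ± 7.78 in L6 CT-like, 43.9 ± 8.84 in L5 IT-like, 43.7 ± 5.26 in L2/3 IT-like, 39.04 ± 30.96 in VLMC-like, 38.6 ± 16.6 in Lamp5-like, 36.5 ± 8.21 in L5 ET-like, 33.01 ± 9.31 in astrocyte-like and 32.1 ± 17.2 in Sncg-like nuclei. Lamp5-like, L5 ET-like, Sncg-like and astrocyte-like nuclei were below the reference, and no neighbours passed. That no class passed does not show that Gabra3 is not expressed in them.

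Gabra4, the α4 subunit, a partner of δ in extrasynaptic receptors, was highest in Lamp5-like interneurons. Its level was 101 ± 28.8 in Lamp5-like, 79.9 ± 13.04 in Pvalb-like, 77.3 ± 8.74 in L2/3 IT-like, 71.7 ± 11.1 in L5 IT-like, 61.6 ± 16.2 in L6 CT-like, 59.6 ± 20.8 in L5/6 NP-like, 56.4 ± 10.5 in L6 IT-like and 50.5 ± 10.6 in astrocyte-like nuclei. Lamp5-like (16 of 16 mice, adjusted p = 0.000570), Pvalb-like, L2/3 IT-like, L5 IT-like and L6 CT-like neurons were above the reference. The other levels were 47.8 ± 16.7 in Vip-like, 44.9 ± 17.2 in microglia-PVM-like, 42.6 ± 8.44 in L5 ET-like, 39.2 ± 20.8 in Sncg-like, 37.4 ± 15.4 in OPC-like, 37.04 ± 9.36 in Sst-like, 34.04 ± 18.5 in oligodendrocyte-like, 26.2 ± 30.6 in VLMC-like and 24.4 ± 24.2 in endothelial-like nuclei. Endothelial-like and VLMC-like nuclei were below the reference, and no neighbours in this order passed. Each of these 2 classes held 19 UMIs of Gabra4 in all, so the lower values cannot be told apart from low depth.

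Gabra5, the α5 subunit of tonic inhibition, which is known for a role in memory, was above the reference in 2 classes, Lamp5-like interneurons (12 of 16 mice, adjusted p = 0.0122) and L6 CT-like neurons (14 of 16 mice, adjusted p = 0.00238). Its level was 54.8 ± 23.7 in Lamp5-like, 50.9 ± 13.9 in L6 CT-like, 39.1 ± 14.5 in L5/6 NP-like, 36.5 ± 7.16 in L5 ET-like, 31.98 ± 6.90 in L5 IT-like, 30.9 ± 22.8 in endothelial-like, 29.3 ± 12.6 in oligodendrocyte-like and 28.9 ± 17.3 in microglia-PVM-like nuclei. VLMC-like nuclei held 17 UMIs of Gabra5 in all, so their value below the reference cannot be told apart from low depth. The levels in superficial neurons and most interneurons stood toward the end of the order. They were 27.5 ± 8.86 in Pvalb-like, 27.5 ± 7.18 in L6 IT-like, 25.6 ± 17.02 in OPC-like, 21.7 ± 13.2 in Vip-like, 20.1 ± 7.03 in astrocyte-like, 16.4 ± 3.89 in L2/3 IT-like, 15.8 ± 16.8 in VLMC-like, 15.3 ± 11.5 in Sncg-like and 14.9 ± 8.40 in Sst-like nuclei, of which VLMC-like nuclei were below the reference. No neighbours passed.

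Gabrb1, a β subunit that forms part of the GABA binding site, differed from the other members in leading in a non-neuronal class. Its level was 388 ± 70.5 in astrocyte-like, 278 ± 70.5 in L5/6 NP-like, 256 ± 58.2 in L6 CT-like, 182 ± 23.9 in L6 IT-like, 171 ± 24.6 in L5 IT-like, 168 ± 51.9 in Vip-like, 162 ± 25.1 in L2/3 IT-like and 155 ± 50.2 in Sncg-like nuclei. Astrocyte-like nuclei were above L5/6 NP-like neurons (0.50 on the log2 scale, higher in 15 of 16 mice, adjusted p = 0.00547) and above the reference in 16 of 16 mice (adjusted p = 0.000570). The remaining levels were 144 ± 29.2 in L5 ET-like, 142 ± 44.1 in Lamp5-like, 132 ± 34.4 in OPC-like, 126 ± 31.5 in Sst-like, 115 ± 28.8 in Pvalb-like, 106 ± 55.6 in oligodendrocyte-like, 105 ± 46.95 in microglia-PVM-like, 95.3 ± 46.2 in endothelial-like and 83.5 ± 53.1 in VLMC-like nuclei. In all, 8 of 11 neuron classes, astrocyte-like and OPC-like nuclei were above the reference. L6 CT-like neurons were above L6 IT-like neurons (0.46 on the log2 scale, higher in 15 of 16 mice, adjusted p = 0.00513), so the deep corticothalamic and near-projecting classes formed the upper end among neurons.

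Gabrb2, the β subunit of many synaptic receptors, was highest in Lamp5-like interneurons and above the reference in 7 of 11 neuron classes and in no other class. Its level was 149 ± 49.3 in Lamp5-like, 90.2 ± 32.3 in Vip-like, 82.6 ± 29.1 in Pvalb-like, 78.9 ± 16.4 in L6 CT-like, 77.3 ± 18.4 in L5 ET-like, 57.5 ± 13.8 in L2/3 IT-like, 57.4 ± 10.2 in L5 IT-like and 50.4 ± 30.5 in Sncg-like nuclei. These classes, except Sncg-like, were above the reference, as in Lamp5-like neurons (16 of 16 mice, adjusted p = 0.000570). Lower in the order, the level was 38.5 ± 18.6 in OPC-like, 35.7 ± 14.01 in L5/6 NP-like, 35.5 ± 10.5 in L6 IT-like, 27.5 ± 17.2 in microglia-PVM-like, 26.3 ± 8.42 in Sst-like, 21.8 ± 13.1 in oligodendrocyte-like, 19.2 ± 26.1 in endothelial-like, 18.6 ± 22.2 in VLMC-like and 13.2 ± 4.93 in astrocyte-like nuclei. Astrocyte-like nuclei, first for Gabrb1, were last for Gabrb2, although their difference from the reference did not pass (adjusted p = 0.142). Endothelial-like nuclei were below the reference (adjusted p = 0.0338), at 16 UMIs of Gabrb2 in all, which cannot be told apart from low depth. Lamp5-like neurons were above Vip-like neurons (0.72 on the log2 scale, higher in 15 of 16 mice, adjusted p = 0.00513), and L5 ET-like neurons were above L2/3 IT-like neurons (0.42 on the log2 scale, higher in 16 of 16 mice, adjusted p = 0.00342).

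Gabrd, the δ subunit of extrasynaptic receptors with high affinity for GABA and neurosteroids, was above the reference in Pvalb-like interneurons (15 of 16 mice, adjusted p = 0.000977) and L2/3 IT-like neurons (14 of 16 mice, adjusted p = 0.00146). Its level was 64.8 ± 20.6 in Pvalb-like, 46.9 ± 10.5 in L2/3 IT-like, 38.3 ± 22.03 in Lamp5-like, 24.1 ± 13.1 in L5/6 NP-like, 22.4 ± 14.9 in microglia-PVM-like, 21.6 ± 20.4 in oligodendrocyte-like, 20.8 ± 9.23 in OPC-like and 19.9 ± 4.57 in L5 IT-like nuclei. Vip-like, Sst-like and Sncg-like interneurons stood near the end of the order. The other levels were 19.9 ± 25.6 in endothelial-like, 18.3 ± 6.15 in L6 CT-like, 18.1 ± 5.63 in L5 ET-like, 17.6 ± 5.46 in L6 IT-like, 16.2 ± 6.42 in astrocyte-like, 13.8 ± 7.87 in Vip-like, 11.8 ± 16.8 in VLMC-like, 11.7 ± 4.61 in Sst-like and 7.52 ± 8.27 in Sncg-like nuclei. Sncg-like neurons, at 11 UMIs of Gabrd in all, and VLMC-like nuclei, at 13 UMIs, were below the reference, and no neighbours passed. With so few UMIs, these lower values cannot be told apart from low depth.

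**Figure D1:**
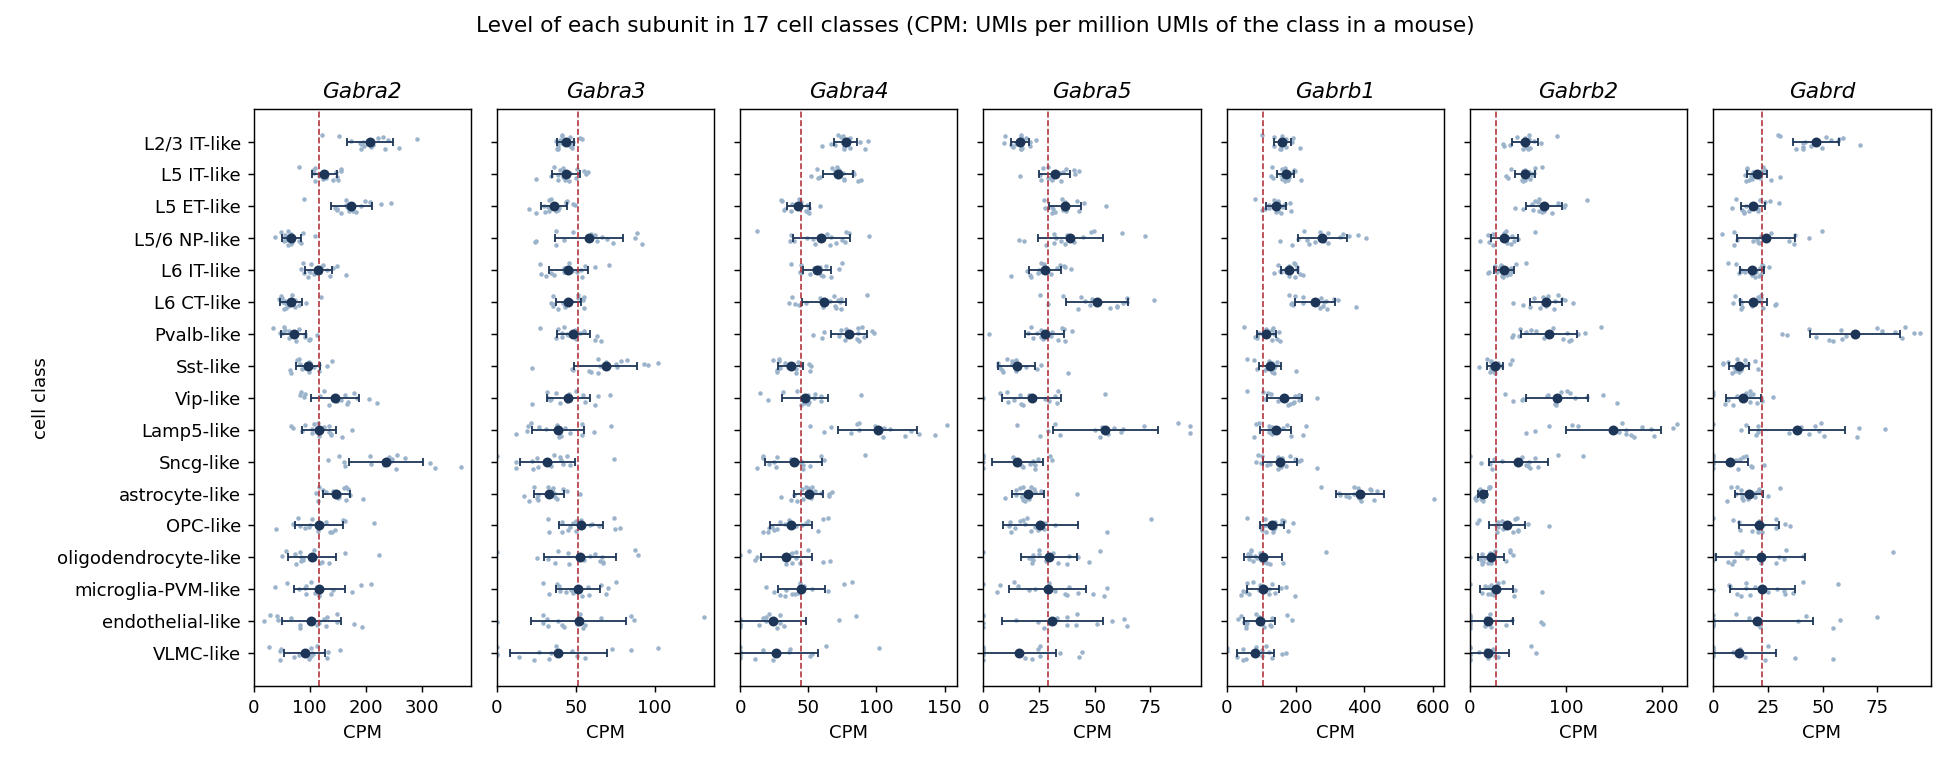
Level of the 7 subunits (x axis, CPM, 1 panel per gene with its own scale) in 17 cell classes (y axis), where small points are mice, dark points with bars are the mean and SD over mice (cut off at 0), and the red dashed line is the mean level in microglia-PVM-like nuclei, used as the reference. Gabrb1 reaches 388 ± 70.5 CPM in astrocyte-like nuclei, where Gabrb2 is lowest (13.2 ± 4.93), and no class of Gabra3 was called above the line.

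The first class of each gene stayed the same in 18 of 18 settings for Gabra2, Gabra4, Gabra5, Gabrb1, Gabrb2 and Gabrd, and in 17 of 18 for Gabra3. Of these settings, 16 only left out 1 mouse. The others were nuclei with at least 500 genes and at most 5% mitochondrial UMIs, and nuclei that themselves carried the class markers. In the latter, Sncg-like neurons led for Gabra3. As a description over the 17 classes, which share libraries, the profiles of Gabra4 and Gabrb2 (Pearson's r = 0.69 of log2(mean CPM + 1)) and of Gabra4 and Gabrd (r = 0.65) were the most alike among the 21 pairs, and those of Gabra2 and Gabra3 the most opposed (r = -0.58). No class of Gabra3 was called above the reference, so its r values here and below rest on levels not read as expression. Over all 14022 genes compared, the profile nearest to that of Gabra2 was Gm27243 (r = 0.77), Dgkb (r = 0.75) and 1110002E22Rik (r = 0.73). For Gabra3 it was Barx2 (r = 0.73), Sh3kbp1 (r = 0.72) and Faf1 (r = 0.71). For Gabra4 the nearest genes were 5830448L01Rik (r = 0.83), Gm47439 (r = 0.83) and Ptpn2 (r = 0.82), and for Gabra5 they were Mfsd4a (r = 0.79), Htr1f (r = 0.75) and Atp8b1 (r = 0.75). Gabrb1 was nearest to Gm13872 (r = 0.93), Kdm5b (r = 0.89) and Tbcel (r = 0.85). Gabrb2 was nearest to Plppr4 (r = 0.91), Tmem38a (r = 0.87) and 4933413L06Rik (r = 0.86), and Gabrd to Atpaf1 (r = 0.73), Zfp784 (r = 0.72) and Ptcd1 (r = 0.67). These genes are the highest of 14022 over only 17 classes, and how high r runs without a shared pattern was not tested.

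Gabrb1 rose with alcohol in L6 CT-like neurons, whereas with the 3xTg-AD genotype Gabra2 rose in Pvalb-like interneurons, where its level was below the reference, and Gabrb1 fell in L5/6 NP-like neurons. The call of Gabra2 was kept in 16 of 22 other settings and lost with DESeq2 and without the 3 mice with high Gm42418, and the call of Gabrb1 with the genotype was kept in 8 of 23. No other member was called in a class. Counts summed per mouse and class were fitted over all genes with the quasi-likelihood test of edgeR, and a gene was called at a Benjamini-Hochberg adjusted p of at most 0.05 within class and contrast. The filter on low counts left 75 pairs of a member and a class. Gabra2 and Gabrb1 were tested in 15 classes each, Gabra3 in 12, Gabra4 in 10, Gabra5 and Gabrb2 in 8 each, and Gabrd in 7. Of the 75 tests, 1 was called for alcohol averaged over genotype and 2 for the genotype. These counts lie near the shares of all tests called, 0.817% and 1.12%, and are not read as a result about the members as a set.

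With both genotypes averaged, alcohol versus control gave 1 call in 75 member tests, against 0.817% of all tests in the 17 classes, and 18 member tests had an unadjusted p under 0.05, 17 of them with higher levels in alcohol mice. Over all tests, 12.7% had such a p. The median log2 fold change of the 75 tests was 0.19. The medians of all genes ran from -0.00 to 0.02 over the classes, and the scaling of counts within a class holds them near 0. The 75 tests share the same mice, and Gabrb1 alone gave 8 of the 18, so these values are a description. The contrast of 3xTg-AD alcohol versus 3xTg-AD control mice gave 1 call (background 0.173%), with 15 member tests at an unadjusted p under 0.05, all higher in alcohol mice, against 8.38% of all tests. Both contrasts share the 3xTg-AD mice. The contrast of both 3xTg-AD groups versus both WT groups gave 2 calls (background 1.12%), with 12 such tests, 10 of them lower in 3xTg-AD mice, against 10.5% of all tests.

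No member was called in the other contrasts by edgeR. In 3xTg-AD alcohol versus WT control mice (background 1.22%), 7 of 75 member tests had an unadjusted p under 0.05, against 12.3% of all tests, and DESeq2 called 0. In 3xTg-AD control versus WT control mice (background 0.204%), 8 had such a p, against 6.48% of all tests, and DESeq2 called 0. In WT alcohol versus WT control mice (background 0.0293%), 5 had such a p, against 8.67% of all tests, and DESeq2 called 0. In 3xTg-AD alcohol versus WT alcohol mice (background 0.436%), 11 had such a p, against 8.79% of all tests, and DESeq2 called 0. The interaction of genotype and alcohol (background 0.000889%) had 3, against 4.17% of all tests, and DESeq2 called 0. A difference in the effect of alcohol between genotypes was thus not detected for any member.

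Gabrb1 rose with alcohol in L6 CT-like neurons. In WT controls the level of Gabrb1 was 180.2 (mouse 26), 199 (mouse 27), 222 (mouse 28) and 274 (mouse 36), and in WT alcohol mice it was 312 (mouse 6), 324 (mouse 7), 289 (mouse 17) and 282 (mouse 18). In 3xTg-AD control mice it was 222 (mouse 12), 190.5 (mouse 13), 187 (mouse 14) and 192 (mouse 21), and in 3xTg-AD alcohol mice 279 (mouse 4), 376 (mouse 31), 272 (mouse 33) and 292 (mouse 34). Mouse 36 was the highest control and lay within the range of the alcohol mice, and 7 of 8 alcohol mice were above all 8 controls. The group means were 219 ± 40.5, 302 ± 19.9, 198 ± 16.1 and 304 ± 48.4 CPM (SD, n = 4 each) in the same order. Averaged over genotype, the increase was 0.50 on the log2 scale (SE = 0.0935, edgeR adjusted p = 0.00724), and 0.793% of the genes tested in this class were called.

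Within the 3xTg-AD genotype, the 4 alcohol mice were all above the 4 controls in L6 CT-like Gabrb1 (log2 fold change = 0.61, SE = 0.131, adjusted p = 0.0344 in edgeR), with 0.198% of the genes of this class called. Here and below, how many genes of a class separate groups of mice in this way was not counted. Within the WT genotype, the difference did not pass (log2 fold change = 0.39, SE = 0.134, adjusted p = 0.372), nor did the interaction (log2 fold change = 0.22, SE = 0.187, adjusted p = 1). Without the 3 mice with high Gm42418, both called values held (log2 fold change = 0.51, adjusted p = 0.00330 over both genotypes, and log2 fold change = 0.73, adjusted p = 0.00152 within 3xTg-AD). The call within 3xTg-AD was lost without any 1 of 3xTg-AD control mice 13, 14 and 21 or of 3xTg-AD alcohol mice 31, 33 and 34 (adjusted p up to 0.201). Nuclei that themselves carried the class markers gave log2 fold change = 0.41, adjusted p = 0.0647 over both genotypes and log2 fold change = 0.59, adjusted p = 0.0828 within 3xTg-AD.

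Since Gabrb1 was highest in astrocyte-like nuclei, astrocyte markers are given beside this result. The summed level of 5 astrocyte markers in L6 CT-like nuclei ran from 105 to 165 CPM in WT controls, 87.8 to 124 in WT alcohol, 80.1 to 129 in 3xTg-AD control and 81.6 to 151 in 3xTg-AD alcohol mice. None of the 5 was at 0, and the ranges of alcohol and control mice overlapped in both genotypes. The reference level of Gabrb1 in microglia-PVM-like nuclei was 90.8, 138, 84.7 and 108 CPM in the 4 groups in the same order, and so also had higher means in alcohol mice. Its part in the result was not tested. The median UMIs per L6 CT-like nucleus ran from 1623 to 2597 in WT controls, 1485 to 3290.5 in WT alcohol, 1800.0 to 2236 in 3xTg-AD control and 2174 to 2837 in 3xTg-AD alcohol mice.

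In the pool of all glutamatergic neurons, Gabrb1 was higher in alcohol mice. The pool includes the L6 CT-like nuclei, which held 4306 of its 21184 UMIs of Gabrb1, so it is not a separate result. L6 CT-like nuclei were 205 of 3096 in WT control mouse 28, 621 of 2357 in WT control mouse 36 and 693 of 2241 in 3xTg-AD alcohol mouse 34. The part of this mix in the result was not tested. The level was 124 (mouse 26), 168 (mouse 27), 155 (mouse 28) and 204 (mouse 36) in WT controls, 205 (mouse 6), 195 (mouse 7), 194 (mouse 17) and 199 (mouse 18) in WT alcohol, 173 (mouse 12), 151 (mouse 13), 166 (mouse 14) and 137 (mouse 21) in 3xTg-AD control and 187 (mouse 4), 236 (mouse 31), 175 (mouse 33) and 203 (mouse 34) in 3xTg-AD alcohol mice. WT control mouse 36 was again the highest control and overlapped with the alcohol mice, 2 of which were above all controls. The increase passed when averaged over genotype (log2 fold change = 0.32, SE = 0.0794, adjusted p = 0.0353 in edgeR, with 2.72% of genes called in the pool), and without the 3 mice with high Gm42418 (log2 fold change = 0.36, adjusted p = 0.0124). It was lost without any 1 of WT control mice 26 and 28, WT alcohol mice 17 and 18, 3xTg-AD control mice 13 and 21, or 3xTg-AD alcohol mice 31, 33 and 34 (adjusted p up to 0.0836). The median UMIs per nucleus of the pool ran from 2202.5 to 2659 in 3xTg-AD control and from 2664 to 3251 in 3xTg-AD alcohol mice, without overlap. They ran from 1930.5 to 3024.5 in WT control and from 1995 to 3968 in WT alcohol mice. The part of this depth in the result was not tested. Over single classes, the log2 fold change of Gabrb1 was above 0 in 15 of 15 classes, from 0.20 in Pvalb-like to 0.66 in Sncg-like nuclei, and 8 had an unadjusted p under 0.05, against 12.7% of all tests, while 1 class was called. These classes share mice, so they are not separate observations.

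In L5/6 NP-like neurons, the near-projecting class of the deep layers, Gabrb1 fell with the 3xTg-AD genotype. Its level was 223 (mouse 26), 271 (mouse 27), 293 (mouse 28) and 338 (mouse 36) in WT controls and 381 (mouse 6), 355 (mouse 7), 329 (mouse 17) and 404 (mouse 18) in WT alcohol mice. In 3xTg-AD control mice it was 206 (mouse 12), 234 (mouse 13), 282 (mouse 14) and 154 (mouse 21), and in 3xTg-AD alcohol mice 255 (mouse 4), 294 (mouse 31), 239 (mouse 33) and 189 (mouse 34). The ranges of the genotypes overlapped, with 5 of 8 WT mice above all 3xTg-AD mice. The decrease just passed when averaged over exposure (log2 fold change = -0.51, SE = 0.137, adjusted p = 0.0492 in edgeR, with 0.63% of genes called in this class) and did not pass with DESeq2 (log2 fold change = -0.52, adjusted p = 0.123). It was kept without the 3 mice with high Gm42418 (log2 fold change = -0.57, adjusted p = 0.0280), but of the 16 fits that left out 1 mouse it was kept only without WT control mice 26 or 27, 3xTg-AD control mouse 14 or 3xTg-AD alcohol mouse 31. Summed astrocyte markers in these nuclei ran from 58.05 to 124 and 44.6 to 130.5 CPM in WT control and WT alcohol mice, and from 73.2 to 173 and 104 to 186 in 3xTg-AD control and 3xTg-AD alcohol mice, whose part was not tested.

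In Pvalb-like interneurons, the fast-spiking cells that inhibit the soma of pyramidal neurons, Gabra2 rose with the 3xTg-AD genotype. Its level was 54.6 (mouse 26), 35.4 (mouse 27), 80.1 (mouse 28) and 56.6 (mouse 36) in WT controls and 63.9 (mouse 6), 52.3 (mouse 7), 46.4 (mouse 17) and 51.4 (mouse 18) in WT alcohol mice. In 3xTg-AD control mice it was 91.6 (mouse 12), 113 (mouse 13), 66.7 (mouse 14) and 91.1 (mouse 21), and in 3xTg-AD alcohol mice 63.7 (mouse 4), 100.1 (mouse 31), 98.3 (mouse 33) and 75.5 (mouse 34). Both genotypes overlapped, and 5 of 8 3xTg-AD mice were above all WT mice. The increase passed when averaged over exposure (log2 fold change = 0.63, SE = 0.154, adjusted p = 0.0194 in edgeR, with 1.28% of genes called in this class). It did not pass without the 3 mice with high Gm42418 (log2 fold change = 0.55, adjusted p = 0.0873), with DESeq2 (log2 fold change = 0.64, adjusted p = 0.0909), or without any 1 of WT alcohol mouse 17, 3xTg-AD control mouse 13 and 3xTg-AD alcohol mice 31 and 33. The level in Pvalb-like neurons lay below that in microglia-PVM-like nuclei, where the group means were 141, 76.3, 135 and 116 CPM in WT control, WT alcohol, 3xTg-AD control and 3xTg-AD alcohol mice. The part of UMIs from other cells in this difference was not tested. The summed level of 5 glutamatergic markers in these nuclei ran from 169 to 517, 409 to 509, 288 to 518 and 378 to 435 CPM in the same order.

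**Figure D2:**
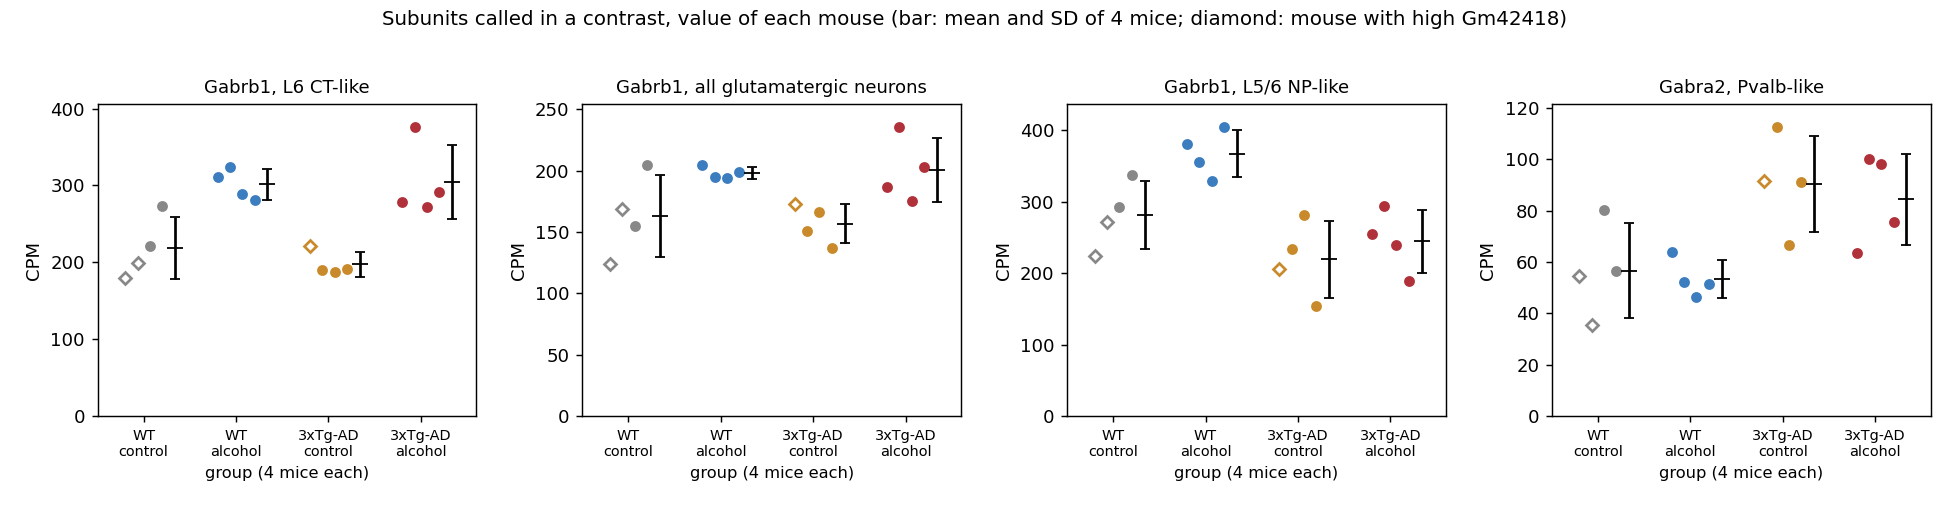
Level in each mouse (y axis, CPM from 0) by group (x axis) for Gabrb1 in L6 CT-like neurons, in all glutamatergic neurons and in L5/6 NP-like neurons, and for Gabra2 in Pvalb-like neurons, with the mean and SD of 4 mice beside the points and open diamonds for the 3 mice with high Gm42418. In L6 CT-like neurons the alcohol mice lie at 272 CPM or above, over all controls but mouse 36.

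The other members had no call in the fit to all mice, and their fold changes are given by range. For the genotype averaged over exposure, Gabra3 ran from -0.56 in Sst-like to 0.12 in Pvalb-like nuclei, with 10 of 12 classes below 0, 5 at an unadjusted p under 0.05 (against 10.5% of all tests) and a lowest adjusted p of 0.117. Here and below, classes share mice, so a count of classes on 1 side of 0 is a description. Gabra5 ran from -0.52 in L6 IT-like to 0.04 in L6 CT-like nuclei (lowest adjusted p = 0.152 in edgeR). Gabrd ran from -0.57 in Pvalb-like to -0.01 in L5 IT-like nuclei, and its value in Pvalb-like neurons, where it is highest, came closest to the threshold of these (log2 fold change = -0.57, SE = 0.169, adjusted p = 0.0791 in edgeR). Gabra4 ran from -0.36 in L6 CT-like to 0.11 in Lamp5-like nuclei, and Gabrb2 from -0.27 in L2/3 IT-like to -0.12 in L6 IT-like nuclei. For alcohol averaged over genotype, Gabra2 ran from -0.49 in microglia-PVM-like to 0.36 in OPC-like nuclei, Gabra3 from -0.27 in OPC-like to 0.27 in oligodendrocyte-like nuclei and Gabra5 from -0.17 in astrocyte-like to 0.25 in L5 IT-like nuclei. Gabra4 ran from 0.05 in Pvalb-like to 0.34 in L6 CT-like nuclei, above 0 in 10 of 10 classes. Gabrb2 ran from 0.08 in L6 CT-like to 0.51 in Vip-like nuclei, above 0 in 8 of 8 classes, and Gabrd from -0.17 in astrocyte-like to 0.46 in Pvalb-like nuclei.

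**Figure D3:**
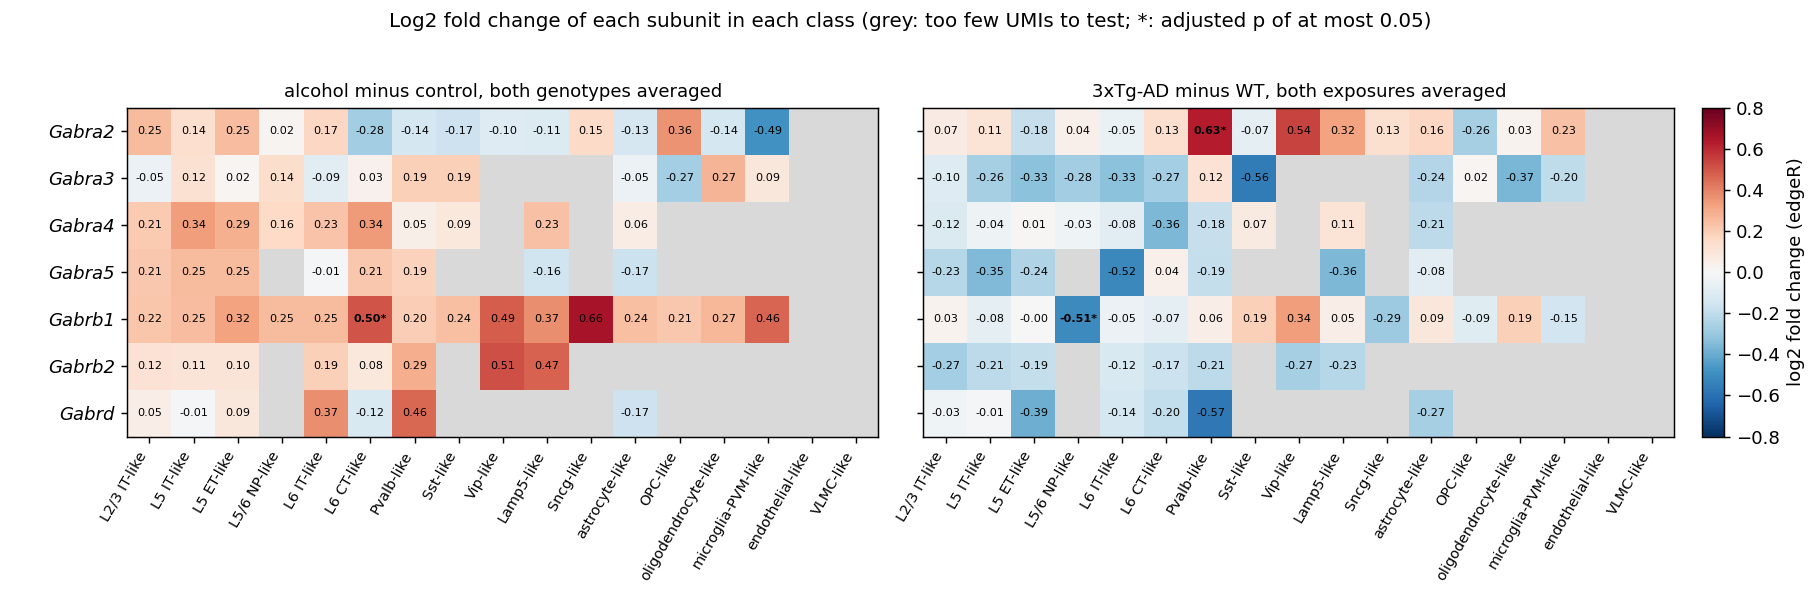
Log2 fold change in edgeR (color and printed value) of each subunit (rows) in each class (columns), for alcohol minus control averaged over genotype on the left and for 3xTg-AD minus WT averaged over exposure on the right, with grey for pairs with too few UMIs and a star for an adjusted p of at most 0.05. The left panel is above 0 in 57 of 75 pairs with 1 star, and the right in 24 of 75 with 2 stars.

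Gabrb2 was the member that differed most between the 3 mice with high Gm42418 and the other 5 controls, as a description of these mice. It was higher on average in the 3 mice in 11 of 11 neuron classes, with a median difference of 0.77 on the log2 scale. In all glutamatergic neurons, Gabrb2 was 70.2 to 83.7 CPM in the 3 mice, 38.03 to 56.9 in the other 5 controls and 57.6 to 72.7 in the 8 alcohol mice. In all GABAergic neurons it was 86.03 to 105, 34.7 to 53.1 and 69.3 to 97.99. In both pools the other 5 controls thus lay below the alcohol mice without overlap, while the 3 mice lay within or above them. How many of all genes separate in this way was not counted. These sets are not balanced for genotype, as the other 5 controls are WT mice 28 and 36 and 3xTg-AD mice 13, 14 and 21. The fold change of Gabrb2 with the genotype was below 0 in 8 of 8 classes, and its part in this split was not tested. Gabra4 was higher in the 3 mice in 7 of 11 classes, Gabrb1 in 4, Gabra5 and Gabrd in 2 each, and Gabra2 and Gabra3 in 1 each.

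Without these 3 mice, mice 28 and 36 were the only WT controls and mice 13, 14 and 21 the only 3xTg-AD controls. In this fit, edgeR called 9 pairs of a member and a class for alcohol averaged over genotype (background 1.67%) and 6 for 3xTg-AD alcohol versus 3xTg-AD control mice (background 1.01%), and 1 for the genotype (background 1.07%). With the log2 share of Gm42418 as a covariate, these counts were 12 (background 2.26%), 10 (background 1.94%) and 2 (background 1.39%), and 2 pairs were called for 3xTg-AD alcohol versus WT control mice (background 1.91%). Gm42418 itself differed with exposure, at 2059 to 3232 CPM in 3xTg-AD alcohol and 3477 to 17914 in 3xTg-AD control mice. It was 2495 to 3912 CPM in WT alcohol and 3807 to 29047 in WT control mice. The covariate and alcohol thus cannot be separated well in this fit. All of the alcohol calls were increases, in Gabra4, Gabrb1 and Gabrb2 only. The calls for Gabrb2 without the 3 mice were 0.87 (SE 0.177, adjusted p = 0.00176) in Pvalb-like, 0.53 (SE 0.0999, adjusted p = 0.00253) in L2/3 IT-like, 0.44 (SE 0.120, adjusted p = 0.0325) in L5 IT-like and 0.89 (SE 0.236, adjusted p = 0.0485) in Lamp5-like neurons. Those for Gabra4 were 0.51 (SE 0.106, adjusted p = 0.00408) in L5 IT-like and 0.65 (SE 0.141, adjusted p = 0.00739) in L6 CT-like neurons. Beside L6 CT-like neurons, Gabrb1 was called in L5 ET-like, 0.39 (SE 0.102, adjusted p = 0.0399), and L6 IT-like neurons, 0.39 (SE 0.106, adjusted p = 0.0484). The mice left out are controls alone, and whether Gm42418 marks a technical or another difference was not tested.

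The values by mouse in 4 pairs of gene and class are given for these genes, pairs that were chosen after their values were seen. Gabrb2 in Pvalb-like neurons was 136 (mouse 26), 86.5 (mouse 27), 51.7 (mouse 28) and 63.5 (mouse 36) in WT controls and 68.3 (mouse 6), 58.5 (mouse 7), 120.0 (mouse 17) and 101 (mouse 18) in WT alcohol mice. In 3xTg-AD control mice it was 113 (mouse 12), 45.02 (mouse 13), 51.5 (mouse 14) and 44.2 (mouse 21), and in 3xTg-AD alcohol mice 76.8 (mouse 4), 96.6 (mouse 31), 106 (mouse 33) and 103 (mouse 34). Mice 26, 27 and 12 were the 3 highest controls, and in the fit to all mice the effect of alcohol averaged over genotype did not pass (log2 fold change = 0.29, SE = 0.268, adjusted p = 0.714 in edgeR). Gabrb2 in L2/3 IT-like neurons was 61.3 (mouse 26), 90.4 (mouse 27), 49.3 (mouse 28) and 56.8 (mouse 36) in WT controls and 61.5 (mouse 6), 59.3 (mouse 7), 66.4 (mouse 17) and 53.8 (mouse 18) in WT alcohol mice. In 3xTg-AD control mice it was 73.6 (mouse 12), 34.8 (mouse 13), 41.6 (mouse 14) and 34.99 (mouse 21), and in 3xTg-AD alcohol mice 57.9 (mouse 4), 62.05 (mouse 31), 54.9 (mouse 33) and 60.6 (mouse 34). Here too the 3xTg-AD control mice other than mouse 12 were below all alcohol mice, and the fit to all mice did not pass (log2 fold change = 0.12, SE = 0.178, adjusted p = 0.802). The median UMIs per L2/3 IT-like nucleus ran from 2224 to 2778 in 3xTg-AD control and from 2712 to 3420.5 in 3xTg-AD alcohol mice. They ran from 1941 to 3273 in WT control and from 2151 to 4268.5 in WT alcohol mice.

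Gabra4 in L6 CT-like neurons was 92.95 (mouse 26), 69.1 (mouse 27), 37.9 (mouse 28) and 58.99 (mouse 36) in WT controls and 73.8 (mouse 6), 71.8 (mouse 7), 66.01 (mouse 17) and 73.1 (mouse 18) in WT alcohol mice. In 3xTg-AD control mice it was 48.2 (mouse 12), 35.8 (mouse 13), 40.03 (mouse 14) and 43.4 (mouse 21), and in 3xTg-AD alcohol mice 69.9 (mouse 4), 60.7 (mouse 31), 70.2 (mouse 33) and 74.2 (mouse 34). The 3xTg-AD groups did not overlap, and the difference did not pass in the fit to all mice (log2 fold change = 0.68, SE = 0.203, adjusted p = 0.187 in edgeR). How many genes of this class separate in this way was not counted. WT controls spread the most, from mouse 28 to mouse 26. Gabra4 in L5 IT-like neurons was 56.3 to 72.6 CPM in WT controls, 69.3 to 83.9 in WT alcohol, 52.2 to 72.2 in 3xTg-AD control and 76.02 to 88.7 in 3xTg-AD alcohol mice, with the highest 3xTg-AD control value in mouse 12. Averaged over genotype, this difference did not pass either (log2 fold change = 0.34, SE = 0.106, adjusted p = 0.0989). The median UMIs per L5 IT-like nucleus ran from 2266 to 2773 in 3xTg-AD control and from 2800 to 3505.5 in 3xTg-AD alcohol mice, without overlap. They ran from 1936.5 to 3113 in WT control and from 2054 to 4078 in WT alcohol mice, and their part was not tested.

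**Figure D4:**
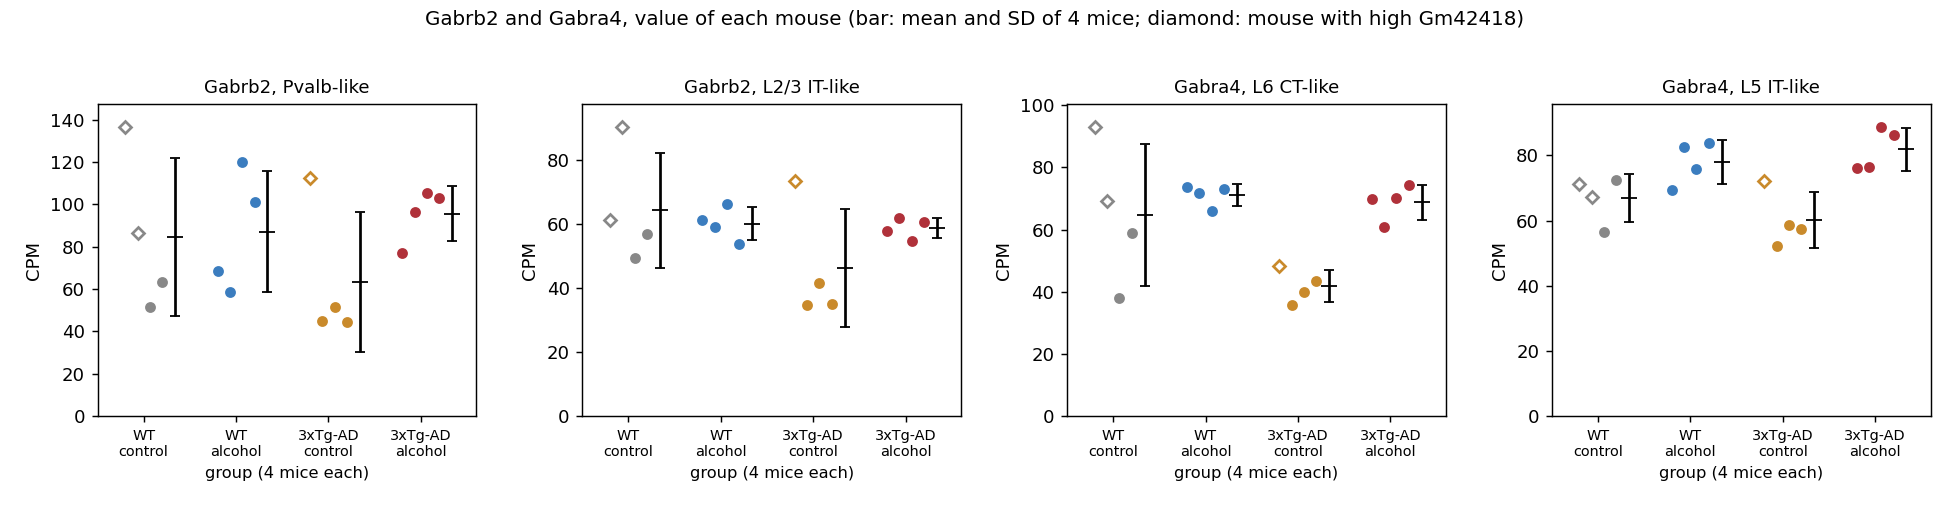
Level in each mouse (y axis, CPM from 0) by group (x axis) for Gabrb2 in Pvalb-like and L2/3 IT-like neurons and Gabra4 in L6 CT-like and L5 IT-like neurons, with the mean and SD of 4 mice beside the points and open diamonds for the 3 mice with high Gm42418. For Gabrb2 in Pvalb-like neurons the diamonds are the 3 highest controls, at 86.5 to 136 CPM against 44.2 to 63.5 in the other 5.

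Other genes of the pathway were counted beside the members. Of 12 further GABA-A subunit genes, 8 were in the table and 5 passed the filter in at least 1 class, in 60 tests per contrast. They gave 1 call for alcohol averaged over genotype, an increase, or 1.67% of its tests against 0.817% of all tests, and 1 call for 3xTg-AD alcohol versus WT control mice, a decrease, or 1.67% against 1.22%, with a median log2 fold change of 0.15 and -0.11 in these contrasts and -0.23 for the genotype. Of 27 genes for receptor scaffolding, trafficking and chloride transport, 26 were tested in 310 tests per contrast, and gave 2 calls, both for the genotype averaged over exposure, or 0.645% of the tests against 1.12% of all tests. Slc12a2, a chloride importer, was higher in microglia-PVM-like nuclei of 3xTg-AD mice (log2 fold change = 0.88, SE = 0.211, adjusted p = 0.00845). Gabarapl2, a ubiquitin-like protein of the family that binds GABA-A receptors and autophagosomes, was higher in Pvalb-like neurons of 3xTg-AD mice (log2 fold change = 0.58, SE = 0.150, adjusted p = 0.0418).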

How the data were processed

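Nuclei of the prefrontal cortex of 16 mice were sequenced by the study with the 10x Genomics 3′ kit (v3.1). Per the labels and the methods of the study, the authors aligned the reads with Cell Ranger 6.1.1 (STAR) to mm10 and the deposited sparse table holds raw UMI counts, 1 column per nucleus of all 16 mice. Whether intronic reads were counted is not given in the sources used here. The study states slightly fewer nuclei after its filter than the table holds and does not state the limits of that filter, so all nuclei were used. No doublet caller was run here.

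Nuclei were assigned by the likelihood of their counts under profiles built from marker-carrying nuclei, without any Gabr gene. A class was named when at least 3 markers were raised at least 1.5-fold and its 10 leading genes did not favor another class. The pools of all glutamatergic and all GABAergic neurons sum their named classes, except for Meis2-like nuclei. Of these 868 nuclei, 763 came from WT control mouse 27, so they were left out of the GABAergic pool. Taken as 1 class, the glutamatergic nuclei did not pass this rule (1 of 5 markers raised), so that pool rests on the names of its classes. Counts were summed per mouse and class, for mice with at least 10 nuclei of the class and classes with at least 3 such mice per group, and the sums were tested by edgeR 4.0.16 under R 4.3.3 (factors by TMM, filterByExpr, robust quasi-likelihood fit of 4 group means, p-values adjusted by Benjamini-Hochberg over all genes of a class and contrast). Fits that left mice out or used marker-carrying nuclei needed at least 2 mice per group. All 16 mice share 1 estimate of the spread, and p-values measure the spread between mice. The fit was also run on simulated counts, the outcome of which is not given here. Levels were compared by permutation with scipy 1.17.1, with a pseudocount of 1 CPM.

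The members, the gene lists and the settings were chosen with earlier results of these data known, and the limits of the assignment were set on these data. Named were the 7 members, every member called in a class and contrast, the called genes of the scaffold, trafficking and chloride list (the further subunits are given by count only) and the 3 genes nearest to each member in profile. The alternatives were DESeq2 1.42.0, RLE factors, no filter on low counts, nuclei with at least 500 genes and at most 5% mitochondrial UMIs, marker-carrying nuclei, Gm42418 as a covariate, without the 3 mice with high Gm42418, and each mouse left out. L6b-like, Meis2-like and pericyte-like nuclei were too few in some mice and were not tested. A further allele of the 3xTg-AD line is not reported here.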

Additional observations from a re-analysis of the deposited data

Results flagged for a closer look

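In 3 of 84 groups of 4 mice, 1 mouse stood apart from the others by Dixon's test, and chance flags about 1 in 20 groups. Gabrb1 in L6 CT-like neurons of 3xTg-AD control mouse 12 was 222 CPM, against 187 to 192 in the other 3 mice of its group. Gabrb2 in Pvalb-like neurons of the same mouse was 113 CPM, against 44.2 to 51.5 in the other 3 mice of its group. Mouse 12 is 1 of the 3 mice with high Gm42418. Gabrd in all GABAergic neurons of 3xTg-AD alcohol mouse 4 was 43.7 CPM, against 30.6 to 32.2 in the other 3 mice of its group.

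Nuclei without the markers of any class, 34150 in all with a median of 823 UMIs, entered no comparison, and their levels are given as values. The share of transcripts from other cells in them was not measured. Over the 16 mice, the α subunits Gabra2, Gabra3, Gabra4 and Gabra5 were 199.6 ± 50.4, 89.1 ± 12.7, 62.01 ± 9.36 and 49.2 ± 9.54 CPM (SD, n = 16). The β subunits Gabrb1 and Gabrb2 were 208 ± 27.7 and 35.4 ± 10.8, and Gabrd was 40.2 ± 7.09. The mean of Gabra3 in these nuclei was above its mean in each of the 17 named classes, and they held 3106 of its 11286 UMIs. What these nuclei are was not tested.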

How the results depend on the processing

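The calls were recomputed under 23 settings. The share of all tests called is given above for the fit to all mice, without the 3 mice and with the covariate. It is not given for the other settings, so their counts cannot be read against it. The count for alcohol averaged over genotype was 9 without the 3 mice with high Gm42418, 12 with the share of Gm42418 as a covariate and 0 in nuclei that carry the markers themselves, against 1 in the fit to all mice, and 1 to 3 with a mouse left out. The count for 3xTg-AD alcohol versus 3xTg-AD control mice was 6, 10 and 0 in the same settings, against 1, and 0 to 3 with a mouse left out. That for the genotype was 1 without the 3 mice, 0 in marker-carrying nuclei, 0 with DESeq2 and 1 without a filter on low counts, against 2, and 0 to 3 with a mouse left out. That for 3xTg-AD alcohol versus WT control mice was 2 with the covariate, against 0, and that for 3xTg-AD control versus WT control mice was 0 to 1 with a mouse left out. The counts of 3 for alcohol and of 1 for 3xTg-AD control versus WT control mice came without 3xTg-AD control mouse 12, and that for alcohol within 3xTg-AD was 0 without any 1 of mice 13, 14, 21, 31, 33 and 34. That for the genotype was 0 without mouse 13, 17 or 33 and 1 without mouse 6, 7, 12, 18, 21, 31, 34 or 36. With a mouse left out, the other contrasts kept 0 calls, 5 to 6 neighbour pairs passed, and 28 to 33 class values were above the microglia-PVM-like level, against 26 in marker-carrying nuclei and 30 in all. The marker-carrying nuclei are 16824 of the 67799 named ones and leave 36 member tests, so fewer counts enter that setting. The cause of the other shifts was not tested. In those nuclei Gabra2 in Pvalb-like neurons was not tested. No result reversed its direction. Gabrb1 in L6 CT-like neurons with alcohol kept its call in 22 of 23 settings (0.41 to 0.56 on the log2 scale), and in 16 of 23 within 3xTg-AD. Gabrb1 in all glutamatergic neurons kept its call in 13 of 23, Gabra2 in Pvalb-like neurons in 16 of 22, and Gabrb1 in L5/6 NP-like neurons in 8 of 23. No paired analysis was possible because each mouse number occurs in 1 group only. Members with few UMIs in a class were not tested there, so that their small changes are beyond the depth of these data.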
